A study of Rattus norvegicus with 91 samples.

Results

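Microglia are the resident immune cells of the brain, and 10 genes that mark them were examined in rat ventral tegmental area tissue: Cx3cr1, P2ry12, Aif1, Csf1r, Itgam, C1qa, C1qb, C1qc, Tyrobp and Ctss. They are 10 of the 14217 genes that the array names singly. The members were all probe sets whose platform annotation gives exactly 1 gene symbol equal to one of these 10 genes. That rule found 12 probe sets of the 20826 with a single gene symbol, among 31099 on the array, with 2 each for P2ry12 and Aif1. Of these, 11 entered the tests with 15152 probe sets in all, since Aif1 probe set 1369489_at lay below the signal floor of 7.02 on all 91 arrays. The floor is the 40th percentile of all values, and at least 1 of the 10 line means had to reach it for a test.

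The study compared 5 pairs of rat lines bred in opposite directions for voluntary alcohol drinking, with 1 Affymetrix array per animal. The high-consumption line comes first in each pair: 8 HAD1 and 10 LAD1, 8 HAD2 and 9 LAD2, 9 P and 10 NP, 10 AA and 10 ANA, and 8 sP and 9 sNP arrays. The groups differ in the line alone as far as the labels go, and the age, sex and drinking history of the animals were not used here. A line difference holds everything in which the lines of a pair diverged, so selection and drift cannot be told apart. Values are log2 signals, so a difference of 1 is a doubling, and no member level was set against that of another pair.

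Microglia enter the brain early in development and keep themselves by local division. They survey the tissue with moving processes, remove debris and dying cells, and tag and prune synapses with the help of complement. Survival depends on signalling through the Csf1r receptor, and contact with neurons is kept in part by fractalkine, the neuronal ligand of Cx3cr1. P2ry12 senses nucleotides released by active or injured cells and directs the processes towards them. Aif1, better known as Iba1, binds calcium and actin and is the common histological marker. Itgam is the alpha chain of complement receptor 3, Tyrobp the signalling adaptor of Trem2 and related receptors, and Ctss a lysosomal cysteine protease. The 3 C1q genes encode the chains of the molecule that starts the classical complement cascade. Most of these genes are also on in other tissue macrophages, so they do not separate microglia from macrophages of the brain borders.

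The arrays fall into sets by their value distributions. These sets largely follow the line pairs, so line pair and processing cannot be told apart in them. Value distributions cut into 5 sets placed all 18 HAD1 and LAD1 arrays in one set and all 17 HAD2 and LAD2 arrays in another. The arrays labelled AA 1, AA 19 and ANA 20 lay with arrays of other pairs. Whether the labels of the 56 arrays outside the HAD and LAD lines match their values was not tested, and these groups are called arrays labelled with a line. Dopamine neuron markers, the defining genes of this tissue, averaged between 12.06 and 13.28 over 7 genes on HAD and LAD arrays, and Th itself was 13.3 or higher there. On arrays labelled P and NP the same average ran from 8.96 to 13.39 and from 8.61 to 13.26. Precision is limited by how many arrays each line has. Each standard error also uses 1 spread per probe set, estimated over all 10 lines and not from the lines compared. It can therefore be wider or narrower than the spread within a pair would give. Over all tested probe sets, the standard error of a difference had a median of 0.0748 in HAD1/LAD1 and of 0.0767 in HAD2/LAD2.

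Few microglia markers differed between the lines of a pair. Cx3cr1 fell in HAD1, P2ry12 rose in HAD2 on both of its probe sets, and no other member passed the test in any pair. In HAD1/LAD1, 1 of 11 probe sets was called (an adjusted p under 0.05, limma with Benjamini-Hochberg adjustment over all probe sets), against a background of 4.09% of all tested probe sets. In HAD2/LAD2 2 of 11 were called, against 5.23%, and these are 1 gene. Of the other pairs, P/NP and sP/sNP had 0 member calls at an adjusted p under 0.05, with 0% of all probe sets called. In each, 0 of 11 members had an unadjusted p under 0.05, against 5.74% and 1.13% of all probe sets. AA/ANA had 0 member calls against 3.17% of all probe sets, and 1 member at an unadjusted p under 0.05. The median member difference was -0.01 in HAD1/LAD1, 0.05 in HAD2/LAD2, 0.05 in P/NP, 0.01 in AA/ANA and 0.00 in sP/sNP. The medians over all tested probe sets in the same order of pairs were 0.00, 0.01, -0.01, 0.00 and 0.01. In whole tissue, fewer microglia and less RNA per microglial cell cannot be told apart.

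**Figure D1:**
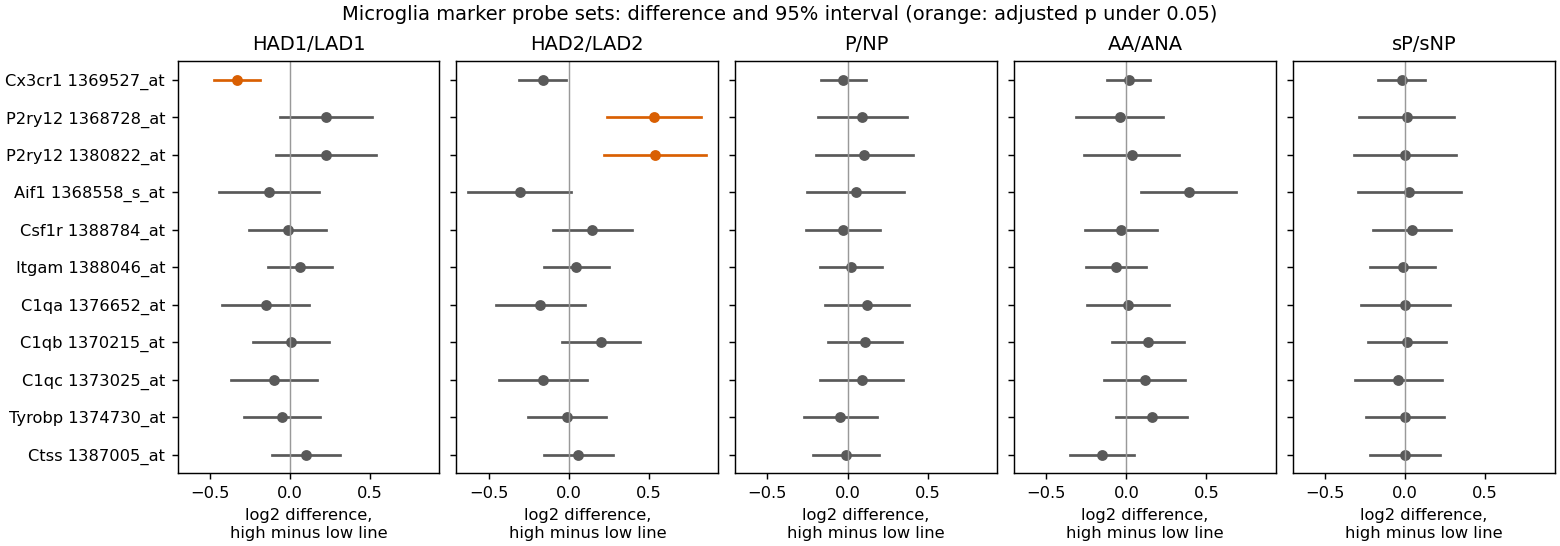
Each panel shows 1 pair of lines, with the log2 difference (high minus low consumption) on the horizontal axis (points), its 95% interval (bars) and the 11 tested member probe sets down the page. Orange marks the 3 called differences: Cx3cr1 lies at -0.33 in HAD1/LAD1 and both P2ry12 probe sets lie at 0.53 and 0.54 in HAD2/LAD2.

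Cx3cr1, the fractalkine receptor through which neurons restrain microglia, was the one member that fell. Its signal (probe set 1369527_at) had a lowest, median and highest value of 7.66, 7.77 and 7.93 on the 8 HAD1 arrays, against 7.81, 8.12 and 8.28 on the 10 LAD1 arrays. All 8 HAD1 arrays lay below the LAD1 median. The ranges met only through array LAD1 37 at 7.81, and the other 9 LAD1 arrays lay at 8.01 or above. The means were 7.78 ± 0.10 in HAD1 and 8.11 ± 0.14 in LAD1 (SD, n = 8 and 10), a difference of -0.33 ± 0.07 (SE) with a limma adjusted p of 0.00106, a HAD1 level 0.795 times that of LAD1.

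Cx3cr1 pointed the same way in the other HAD/LAD pair without passing the test. The lowest, median and highest values were 6.78, 6.99 and 7.17 in HAD2, against 7.04, 7.15 and 7.30 in LAD2. These signals straddle the floor, which 3 of 8 HAD2 arrays and 9 of 9 LAD2 arrays reached. The difference was -0.16 ± 0.07 (limma adjusted p 0.264), and 1 of 8 HAD2 arrays lay above the LAD2 median. Averaged over both HAD/LAD pairs it was -0.25 ± 0.05 (limma adjusted p 0.000443). The difference between the pairs was -0.17 (95% interval -0.37 to 0.04, limma adjusted p 0.561), so unequal effects were not shown. On arrays labelled P and NP it was -0.03, on arrays labelled AA and ANA 0.01, and on arrays labelled sP and sNP -0.02. Over all 5 pairs the mean difference was -0.11 ± 0.03 (limma adjusted p 0.0776). In this mean 0 of 11 member probe sets were called, against 1.55% of all. At an unadjusted p under 0.05 there were 3, against 9.98% of all.

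P2ry12, the nucleotide receptor that steers microglial processes, rose in HAD2 by nearly the same amount on both probe sets. Probe set 1368728_at had a lowest, median and highest signal of 8.10, 8.27 and 8.66 on the 8 HAD2 arrays, against 7.52, 7.81 and 7.97 on the 9 LAD2 arrays. Every HAD2 array lay above every LAD2 array. Of 55 combinations of member probe set and pair, it was the only one without overlap of the lines. How often lines separate fully over all probe sets was not counted, so this separation is described and not ranked. The means were 8.33 ± 0.20 in HAD2 and 7.80 ± 0.15 in LAD2 (SD, n = 8 and 9), a difference of 0.53 ± 0.15 (SE, limma adjusted p 0.0141) or 1.45-fold.

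Probe set 1380822_at ranged from 11.09 over a median of 11.35 to 11.89 in HAD2, against 10.55, 10.92 and 11.40 in LAD2. The lines overlapped through array LAD2 17 alone, at 11.40, which was higher than 5 of the HAD2 arrays. Its difference was 0.54 ± 0.16 (limma adjusted p 0.0284). That call was lost when any one of 6 arrays was left out: LAD2 11, LAD2 12, LAD2 13, HAD2 8, HAD2 9 or HAD2 10, with adjusted p between 0.0522 and 0.0940. The call of probe set 1368728_at held without each of the 17 arrays in turn.

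In HAD1/LAD1 both P2ry12 probe sets were 0.23 higher in HAD1, with standard errors of 0.14 and 0.16 and limma adjusted p of 0.594 and 0.655. For 1368728_at the HAD1 arrays had 8.43, 8.69 and 8.82 as lowest, median and highest signal, against 7.87, 8.48 and 8.81 in LAD1. The groups overlapped, with 7 of 8 HAD1 arrays above the LAD1 median. For 1380822_at the HAD1 values were 10.94, 11.18 and 11.36, against 10.55, 10.87 and 11.34 in LAD1, and all 8 HAD1 arrays lay above the LAD1 median. The mean over both HAD/LAD pairs was 0.38 ± 0.10 for the first probe set (limma adjusted p 0.0131) and 0.38 ± 0.11 for the second (limma adjusted p 0.0261). In that mean 3 of 11 member probe sets were called, these 2 and Cx3cr1, against 5.22% of all tested probe sets. The second call was lost without array HAD2 9 (adjusted p 0.0596). The difference between the pairs was -0.31 for both probe sets, with 95% intervals of -0.72 to 0.10 and -0.76 to 0.14. In this limma test 0 of 11 member probe sets were called, against 4.13% of all. At an unadjusted p under 0.05 there were 0, against 12.8% of all. Differences between arrays labelled P and NP were 0.09 and 0.11, between arrays labelled AA and ANA -0.04 and 0.03, and between arrays labelled sP and sNP 0.01 and 0.00.

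**Figure D2:**
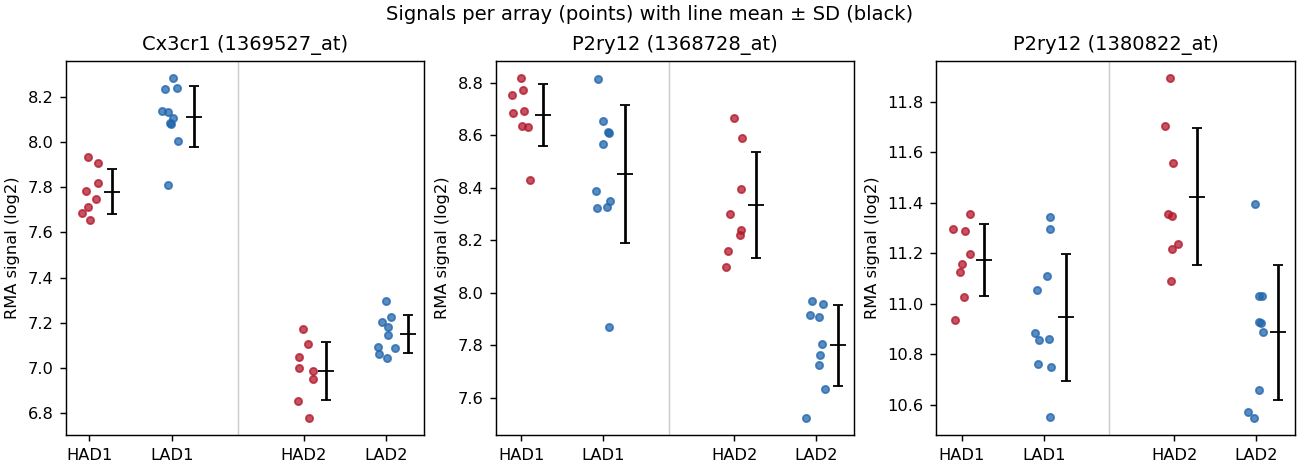
Log2 signals of Cx3cr1 and both P2ry12 probe sets are plotted by line on 35 HAD and LAD arrays, with 1 point per array and black bars for the mean and SD. Cx3cr1 lies lower in HAD1 than in LAD1 apart from 1 LAD1 array at 7.81, and P2ry12 probe set 1368728_at lies higher on each HAD2 array than on each LAD2 array.

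Csf1r, the receptor for Csf1 and Il34 on which microglial survival depends, did not pass in any pair. Its lowest, median and highest signals were 9.51, 9.58 and 9.75 in HAD1, against 9.40, 9.66 and 9.87 in LAD1. In HAD2 they were 9.20, 9.33 and 9.96, against 9.07, 9.30 and 9.50 in LAD2. The lines overlapped in both pairs, with differences of -0.01 ± 0.12 and 0.15 ± 0.12. It was the only member probe set of 11 whose difference had opposite signs in the 2 HAD/LAD pairs.

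The 3 C1q genes lie next to each other on one chromosome, with no other annotated gene between them, and their chains assemble into 1 protein. None was called in any pair. C1qa differed by -0.15 ± 0.14 in HAD1/LAD1 and by -0.18 ± 0.14 in HAD2/LAD2, and C1qc by -0.10 ± 0.13 and -0.16 ± 0.14. These standard errors take in the spread of the other lines. The C1qa SD was 0.15 in HAD1, 0.12 in LAD1, 0.31 in HAD2 and 0.16 in LAD2. It was 0.48 and 0.45 on arrays labelled P and NP. With each HAD/LAD pair fitted alone, no C1q gene was called either. C1qb differed by 0.01 ± 0.12 and 0.20 ± 0.12. C1qb was the only one of the 11 probe sets with 1 sign in all 5 pairs, between 0.01 and 0.20 higher in the high-consumption line, and its mean over the pairs was 0.09 ± 0.05 (limma adjusted p 0.625).

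Aif1 had its widest difference outside the HAD and LAD lines. Probe set 1368558_s_at had a lowest, median and highest signal of 9.48, 9.83 and 10.71 on arrays labelled AA, against 9.14, 9.43 and 10.25 on arrays labelled ANA. All 10 arrays labelled AA lay above the median of those labelled ANA, and the groups overlapped. The difference was 0.39 ± 0.15 (limma adjusted p 0.168), and 0.38 (adjusted p 0.187) without the 3 arrays that lay with other pairs. In HAD2/LAD2 the difference was -0.30 ± 0.16 (limma adjusted p 0.396), with 7.08, 7.27 and 7.96 in HAD2, against 7.29, 7.73 and 7.93 in LAD2, and in HAD1/LAD1 it was -0.13 ± 0.16. The other Aif1 probe set gave nothing above the floor.

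Itgam, Tyrobp and Ctss differed little. Itgam was 0.06 ± 0.10 higher in HAD1 and 0.05 ± 0.10 higher in HAD2, and Tyrobp differed by -0.05 ± 0.12 and -0.01 ± 0.12. Both genes were below the floor in HAD2 and in LAD2, so those values say little about either gene. Ctss differed by 0.10 ± 0.11 in HAD1/LAD1, by 0.06 ± 0.11 in HAD2/LAD2 and by -0.15 ± 0.10 between arrays labelled AA and ANA. None of these values passed the test.

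The members differed in how much they varied inside a line. The median SD of the 11 probe sets was 0.13 in HAD1, against 0.18 in LAD1. For HAD2 it was 0.24, against 0.15 for LAD2. It was 0.39 on arrays labelled P and 0.45 on those labelled NP, against 0.17 and 0.18 over all tested probe sets there. Single arrays stood at the end of their line for many members together. P 10 was highest of its line in 10 of 11 probe sets and NP 8 lowest in 10, with Th signals of 9.12 and 8.23, the lowest of their lines. NP 2 was highest in 9 probe sets, with Th at 14.7, AA 1 in 8 and HAD2 9 in 8. Low Th therefore came with the highest microglia signals on one array and with the lowest on another. The part of dissection or RNA in these values was not tested. The largest member difference between arrays labelled P and NP was 0.12. The 95% intervals of all member differences in that pair together reached from -0.27 to 0.41. These intervals rest on 1 spread per probe set, estimated over all 10 lines. Most members varied more on arrays labelled P and NP, so the intervals understate the uncertainty in that pair.

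**Figure D3:**
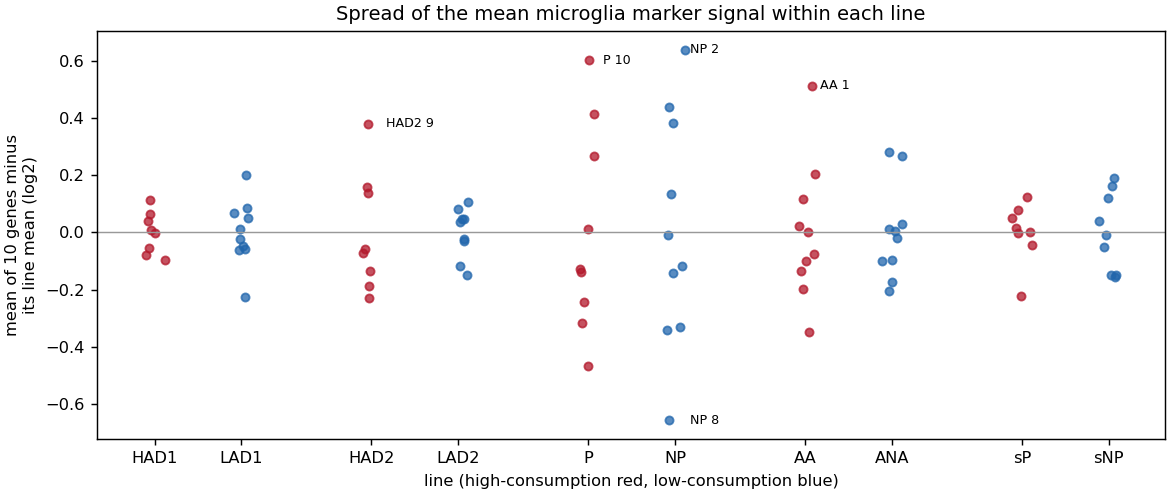
The mean log2 signal of the 10 genes on each array is plotted after subtracting the mean of its line, with 1 point per array and lines ordered by pair (high-consumption red, low-consumption blue). Arrays labelled P and NP spread most, with P 10 and NP 2 at the top and NP 8 at the bottom.

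Across the 35 HAD and LAD arrays most members moved together once the line means were subtracted. With 1 probe set per gene, Pearson's r was above 0 in 43 of 45 gene pairs. It passed an adjusted p of 0.05 in 25 pairs, all positive (permutation test with 100000 shuffles, 2-sided, adjusted over the 45 pairs), and Spearman's rho passed in the same 25. Their r ran from 0.43 to 0.78. Leaving out the 2 arrays farthest from the median of 1 gene of the pair kept each of the 25 at 0.31 or above. Arrays extreme only in the other gene stayed in. Each r was positive within HAD1 and LAD1 (0.12 to 0.79) and within HAD2 and LAD2 (0.33 to 0.90). The arrays share tissue pieces, labelling and normalization, so these values describe covariation and not its source.

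Aif1, Csf1r, C1qa, C1qb and Tyrobp formed the tightest group, with r between 0.55 and 0.78 in all 10 of their pairs. Aif1 and Tyrobp had the highest r, 0.779 (rho 0.689, permutation adjusted p 7.5e-05). Tyrobp and Itgam lay below the floor on every HAD2 and LAD2 array. Cx3cr1 reached the floor on 3 of 8 HAD2 arrays, so the r values of these genes say less. C1qa reached 0.763 with C1qb (rho 0.65, permutation adjusted p 7.5e-05) and 0.745 with C1qc (rho 0.777), and C1qb with C1qc 0.574 (rho 0.623). P2ry12 went most closely with Ctss, at 0.664 (rho 0.641, permutation adjusted p 0.00035), and Csf1r with Ctss reached 0.768. Cx3cr1 stood outside: 0 of its 9 pairs passed, with r from -0.03 to 0.41. The closest was Itgam (rho 0.364, permutation adjusted p 0.05 for r). With the 3′-minus-5′ Gapdh signal of each array taken out, that pair passed (r 0.436, permutation adjusted p 0.0373), as the only addition to the 25. Against the mean of the other members, r was 0.18 for Cx3cr1, 0.39 for Itgam and 0.44 for P2ry12, and between 0.54 and 0.86 for the other 7. The 2 members that differed between lines were thus among the 3 that followed the rest least. Of these 3, Cx3cr1 and Itgam had HAD2 and LAD2 signals near or below the floor.

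**Figure D4:**
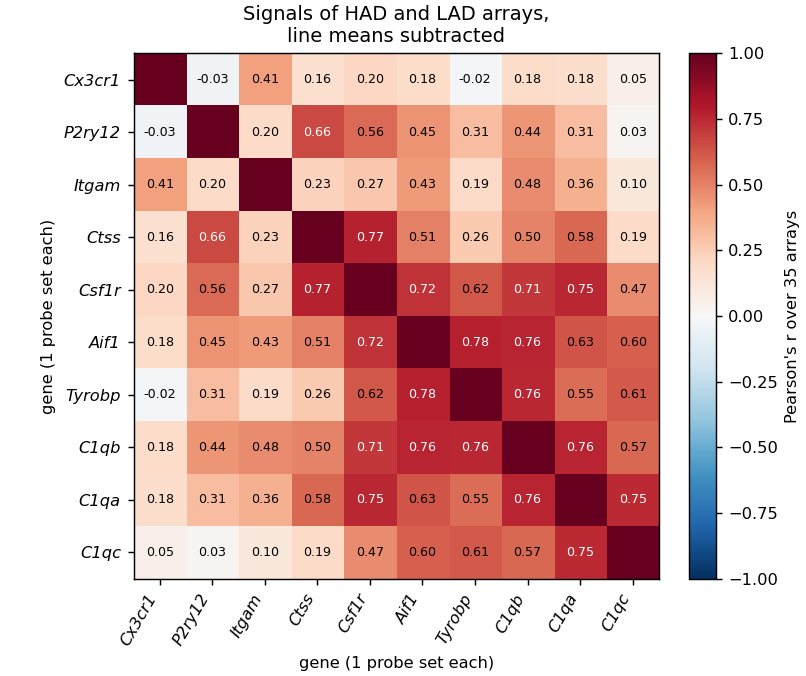
Pearson's r between the log2 signals of the 10 genes over 35 HAD and LAD arrays is shown after the mean of each line was subtracted (colour scale from -1 to 1, gene names on both axes). Aif1, Csf1r, Tyrobp, C1qa and C1qb share r of 0.55 to 0.78, and the Cx3cr1 row runs from -0.03 to 0.41.

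C1qa and C1qb are shown as sequence because they belong to the same block of 3 adjacent genes and moved together. C1qc, the other gene of that block, had no promoter sequence available. Each run is the 250 bases before the gene start in the RefSeq annotation of GRCr8, 5′ to 3′ on the gene's strand. They lie at chr5:154419934-154420183 and chr5:154407828-154408077, both on the minus strand. Capitals mark GGAAGT or its complement ACTTCC, a core bound by ETS factors, the family of the macrophage factor PU.1.
C1qa: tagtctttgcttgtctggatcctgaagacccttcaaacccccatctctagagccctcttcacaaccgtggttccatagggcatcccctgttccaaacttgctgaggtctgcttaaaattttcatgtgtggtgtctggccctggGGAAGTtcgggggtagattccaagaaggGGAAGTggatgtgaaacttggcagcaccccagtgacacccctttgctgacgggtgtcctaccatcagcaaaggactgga
C1qb: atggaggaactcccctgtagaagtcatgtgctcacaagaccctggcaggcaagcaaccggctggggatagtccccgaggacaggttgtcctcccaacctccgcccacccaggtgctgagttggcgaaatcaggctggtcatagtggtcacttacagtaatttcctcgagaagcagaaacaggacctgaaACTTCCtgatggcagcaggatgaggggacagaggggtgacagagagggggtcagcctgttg
The core occurs 2 times before C1qa and once before C1qb. It was found on either strand in 3 of the 6 members with a promoter sequence (C1qa, C1qb and Ctss) and in 19.2% of 33469 promoters of the same length. The longer form GAGGAAGT was found in 1 of the 6 (Ctss), so in neither C1qa nor C1qb, and in 2.04% of the promoters. A match describes letters and not binding.

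Among 11072 genes compared over the same 35 arrays, the 10 most like the mean of the members were Pld4, Anxa3, Sash3, Unc93b1, Gpr84, Tmem176b, Gamt, Adgre1, Ctsh and Tlr2. Their r ran from 0.836 for Pld4 to 0.776 for Tlr2, against a median of 0.118 over all genes compared. None of the 10 was called in either HAD/LAD pair. The summed markers of other cells also moved with the members: r with the mean of the members was 0.66 for 9 astrocyte markers, 0.65 for 3 border macrophage markers, 0.48 for 11 endothelial and pericyte markers and 0.40 for 9 oligodendrocyte markers. It was -0.23 for 10 neuron markers and -0.09 for 7 dopamine neuron markers. The dopamine neuron value had opposite signs within HAD1 and LAD1 (-0.47) and within HAD2 and LAD2 (0.17). The median signal of each array gave an r of 0.40 with the mean of the members.

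Other microglia genes were mostly as level as the members. Of 26 further microglia markers 19 were tested, and 1 fell and 0 rose in HAD1/LAD1, with a median difference of -0.01. In HAD2/LAD2 0 were called by limma, with a median of 0.01 and 1 at an unadjusted p under 0.05, against 14.4% of all probe sets. The gene that fell was Itgb2, which encodes the beta chain that pairs with Itgam in complement receptor 3. Its lowest, median and highest signals were 7.89, 8.12 and 8.27 in HAD1, against 7.87, 8.72 and 8.84 in LAD1, and the lines overlapped. The difference was -0.43 ± 0.11 (limma adjusted p 0.00769), and the call held without each of the 18 arrays in turn but not with this pair fitted alone (adjusted p 0.0588). Itgam itself was 0.06 higher in HAD1. Cd83, an immunoglobulin-family surface protein, did not pass in either pair but differed between them by 0.49 ± 0.12 (limma adjusted p 0.00657), being 0.25 higher in HAD1 and 0.24 lower in HAD2.

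Among 15 ligands, partners and inhibitors of the members 13 were tested, with median differences of -0.01 in HAD1/LAD1 and 0.15 in HAD2/LAD2. Itgb2, which is on this list too, was the 1 call in HAD1/LAD1. In HAD2/LAD2 0 genes of the list were called by limma, with 3 at an unadjusted p under 0.05, against 14.4% of all probe sets. Cx3cl1, which encodes fractalkine, was 0.12 ± 0.08 higher in HAD1 and 0.20 ± 0.08 higher in HAD2 (limma adjusted p 0.615 and 0.196), opposite in sign to its receptor. The Csf1r ligands gave 0.02 and -0.14 for Csf1, and -0.05 and 0.24 for Il34. Trem2, the receptor that signals through Tyrobp, gave -0.07 and -0.06. Cst3, an inhibitor of cathepsins, was 0.12 ± 0.06 and 0.15 ± 0.06 higher and passed in the mean of both pairs (0.13 ± 0.04, limma adjusted p 0.0253). That call held in 30 of the 35 fits that left out 1 array. It was lost with the HAD and LAD arrays alone (limma adjusted p 0.0776). C3, the central complement protein, was 0.80 ± 0.23 higher on arrays labelled AA than on arrays labelled ANA (limma adjusted p 0.0303), a call held in 11 of 20 such fits. Without the 3 arrays that lay with other pairs its difference was 1.01 (limma adjusted p 0.000812).

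Of 17 complement genes 8 were tested, with C3 the only call in any pair and median differences of -0.06 in HAD1/LAD1 and 0.16 in HAD2/LAD2. Of 24 activation genes 8 were tested, with medians of 0.04 and -0.04, and Axl, a receptor for the uptake of dying cells, was the only call in any pair. It was 9.47 ± 0.17 in HAD2 and 9.65 ± 0.13 in LAD2, a difference of -0.19 ± 0.06 (limma adjusted p 0.0347), held in 9 of 17 fits without 1 array.

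Markers of cells that share genes with microglia moved in some pairs. Border macrophage markers are few here: 3 of 9 were tested (Mrc1, Pf4 and Stab1), and no line mean of Cd163 or Lyve1 reached the floor. Their average lay between 7.31 and 7.88 in HAD1 and between 7.30 and 8.35 in LAD1. It lay between 7.37 and 8.03 in HAD2 and between 7.05 and 7.44 in LAD2. Pf4, a chemokine of platelets and border macrophages, fell by 0.91 on the log2 scale in HAD1 (7.72 ± 0.44 in HAD1 and 8.63 ± 0.34 in LAD1, limma adjusted p 3.3e-05). It rose by 0.52 ± 0.17 in HAD2 (limma adjusted p 0.0445), a call held in 5 of 17 fits without 1 array. Pf4 thus had the sign of Cx3cr1 in HAD1/LAD1 and that of P2ry12 in HAD2/LAD2. Its sign was opposite to that of P2ry12 in HAD1/LAD1 and to that of Cx3cr1 in HAD2/LAD2. The part of Pf4 in these results was not tested. The other tested markers of these cells did not pass. Stab1, a scavenger receptor, differed by -0.15 ± 0.19 in HAD1/LAD1 and by 0.50 ± 0.19 in HAD2/LAD2 (limma adjusted p 0.889 and 0.139), the same signs as Pf4, and Mrc1 by 0.29 and 0.03.

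Blood markers gave 0 limma calls among 3 tested genes in both HAD/LAD pairs. At an unadjusted p under 0.05 there were 0, against 12.7% and 14.4% of all probe sets. Lyz2 was 0.35 lower on arrays labelled AA than on arrays labelled ANA (limma adjusted p 0.0275), a call held in 13 of 20 fits without 1 array. Astrocyte and dopamine neuron lists had 0 calls in any pair among 9 and 7 tested genes, at an adjusted p under 0.05 in limma. In HAD1/LAD1 1 gene of each list had an unadjusted p under 0.05, against 12.7% of all probe sets. In HAD2/LAD2 0 had, against 14.4%. Of 9 oligodendrocyte genes Mobp rose in HAD1 (0.30 ± 0.08, with -0.17 and 0.12 on its other probe sets) and Opalin fell in HAD2 (-0.33 ± 0.10), a call held in 7 of 17 fits without 1 array and lost with the HAD and LAD arrays alone (adjusted p 0.0506). Of 10 neuron genes Map2 was called between arrays labelled AA and ANA (0.18 ± 0.05), a call held in 18 of 20 fits without 1 array. Its other probe set was not called there (0.30, limma adjusted p 0.361) but fell by 1.98 on the log2 scale in HAD2 (limma adjusted p 7.15e-18), so the Map2 probe sets disagreed. Of 11 endothelial and pericyte genes Tek rose in HAD1 (0.39 ± 0.07) and fell in HAD2 (-0.37 ± 0.07), while Abcb1a fell in HAD1 (-0.53 ± 0.11) and rose in HAD2 (0.60 ± 0.12) on its brighter probe set. The other Abcb1a probe set gave -0.07 and 0.13 and was called in neither pair (limma adjusted p 0.863 and 0.559). Between arrays labelled AA and ANA both were called, at 0.41 ± 0.11 and 0.28. Rgs5 (0.35 ± 0.09) and Vtn (0.41 ± 0.11) rose in HAD2, and the Vtn call held in 16 of 17 fits without 1 array. Without the 3 arrays that lay with other pairs, the differences between arrays labelled AA and ANA were -0.46 for Lyz2, 0.18 for Map2 and 0.51 for Abcb1a, all still called. The part of vessels in the member results was not tested. The 3′-minus-5′ Gapdh signal, a measure of RNA and labelling quality, averaged 1.89 on HAD1 arrays and 1.78 on LAD1 arrays. Its HAD2 and LAD2 averages were 3.42 and 3.58. With that signal as a covariate the same 3 member probe sets were called.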

How the data were processed

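Ventral tegmental area RNA of 91 rats was measured on 1 array each. Per the labels' protocols, 25 ng of total RNA was amplified in 2 cycles and labelled with biotin. Per the submitters' processing notes the authors used RMA, and the deposited values are log2 signals. The RMA version and the grouping of arrays in that step are not known here.

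The platform annotation named the probe sets: 20826 have 1 symbol, 436 several and 9780 none, and 57 are controls. Gene IDs of all 10 members matched the GRCr8 table, with the same symbols. A single limma model (lmFit, eBayes) held all arrays and 10 line means and left 81 residual degrees of freedom. Contrasts were high- minus low-consumption line in each pair, the mean of and difference between both HAD/LAD pairs, and the mean of 5 pairs. Tests were 2-sided with Benjamini-Hochberg adjustment per contrast over 15152 probe sets. Intervals are at 95%. The labels name separate animals.

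Members and gene lists were chosen with earlier results of these data known. Named were all members, every called ligand, partner or inhibitor with Cx3cl1, Csf1, Il34, Trem2 and Cst3, up to 6 called genes of other lists per contrast, and the 10 most similar genes. A list gene was represented by its brightest tested probe set. Alternatives were other filters, normalizations, fits, weights and probe sets, a replicate block and each array left out, and a Gapdh covariate that was added after seeing the data. On simulated data with known changes the scripts were tested first. Tools were limma 3.58.1 in R 4.3.3, and matplotlib 3.10.9 in Python 3.11.15.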

Additional observations from a re-analysis of the deposited data

Results flagged for a closer look

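Within lines of 8 to 10 arrays, 6 of 120 combinations of member probe set and line had 1 array far from the rest by Dixon's criterion, where chance alone marks about 1 in 20. P2ry12 probe set 1368728_at was 7.87 on array LAD1 39. Aif1 probe set 1368558_s_at was 7.90 on HAD1 25, and 10.7 on AA 1, an array that lay with another pair. The dim Aif1 probe set 1369489_at was 6.35 on HAD2 9. C1qc was 9.13 on LAD1 36 and 9.52 on the array labelled sNP 9.

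No member was called for a difference between the HAD1/LAD1 and HAD2/LAD2 contrasts. With 1 probe set per gene, 5 genes of the related lists were called by a limma test of that difference, against 4.13% of all probe sets. Calls were 1 of 19 further microglia markers, 1 of 8 activation genes and 1 of 3 border macrophage markers. Of 11 endothelial and pericyte genes, 1 was called higher and 1 lower. The other lists, of 3 to 13 tested genes, had 0 calls. The values were 0.492 for Cd83 (adjusted p 0.00657), 0.258 for Axl (adjusted p 0.0484), -1.43 for Pf4 (adjusted p 3.36e-06), 0.760 for Tek (adjusted p 6.43e-09) and -1.12 for Abcb1a (adjusted p 1.46e-07). A second Abcb1a probe set gave -0.20 (adjusted p 0.521). The Axl value passed in 14 of 35 fits that left out 1 array.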

How the results depend on the processing

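The calls of Cx3cr1 in HAD1/LAD1 and of P2ry12 in HAD2/LAD2, and of both in the mean of these pairs, kept their direction under every alternative that tested them, and no member call changed sign. The filter at the 60th percentile left Cx3cr1 untested, so 0 member probe sets were called in HAD1/LAD1, and 1 probe set per gene left 1 call in HAD2/LAD2. With 1 array left out, the number of called member probe sets was 1 to 2 in HAD2/LAD2, 0 to 1 in AA/ANA (Aif1 without ANA 20, adjusted p 0.0466) and 0 to 1 in the mean of 5 pairs, against 0 in the last 2 with all arrays. In that mean Cx3cr1 passed without LAD1 37, NP 7, P 10, AA 1 or sP 3. Array weights called 1 member probe set in AA/ANA (Aif1, adjusted p 0.0125), where they called 8.27% of all, and 3 in the mean of 5 pairs, where they called 6.98% of all. Quantile normalization, centring of each array, and leaving out the 3 arrays apart each called 1 there, and the cause of these changes was not tested. With the pair fitted alone, C3, Lyz2, Map2 and Abcb1a were not called in AA/ANA (adjusted p between 0.0581 and 0.232), and Axl was not in HAD2/LAD2 (0.177).

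Over all probe sets, the calls in HAD1/LAD1, HAD2/LAD2 and AA/ANA were 620, 792 and 481 as reported. They were 1040, 1160 and 1253 with array weights, 1042, 1302 and 835 over all probe sets but controls, and 427, 605 and 326 with 1 probe set per gene. AA/ANA fitted alone gave 197. Array weights called 1515 probe sets in P/NP and 5 in sP/sNP, where 0 were called as reported. Numbers shared by P and NP, and by sP and sNP, did not clearly pair the arrays. Arrays of the same number correlated above 0.1 in 6 of 9 and 1 of 8 cases, with r from -0.71 to 0.70 in P/NP. Only 1 of 9 arrays labelled P, and 0 of 8 labelled sP, correlated best with the array of its own number. With these numbers as a replicate block 0 member probe sets were called in either pair, and 15 of all probe sets in P/NP. Signals near the floor limit Cx3cr1, Itgam and Tyrobp in HAD2/LAD2.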
